A study of Mus musculus with 6 samples.

Results

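The genes that encode voltage-gated calcium and sodium channels were followed across 3 brain regions of mice given saline or PAMAM dendrimers into the nose. They were chosen by symbol: the calcium channel pore (Cacna1), alpha2delta (Cacna2d), beta (Cacnb) and gamma (Cacng) genes, and the sodium channel alpha (Scn followed by a number and "a") and beta (Scn followed by a number and "b") genes. In all, 60 probes of 39 genes matched, of 34788 genes on the array, and each gene was read from its brightest probe over the 6 arrays. By family these were 10 calcium channel pore genes, 4 alpha2delta, 4 beta and 8 gamma genes, and 9 sodium channel alpha and 4 beta genes.

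The mice were male BALB/c, an inbred laboratory strain, aged 8 weeks. PAMAM dendrimers are branched polyamidoamine polymers used to carry drugs and nucleic acids. A single dose of 0.15 mg/kg, or saline (0 mg/kg), was given, and tissue was taken at 24 h. The 6 groups were olfactory bulb with saline, olfactory bulb with PAMAM, hippocampus with saline, hippocampus with PAMAM, cortex with saline and cortex with PAMAM. Each of them is 1 array of RNA that combines 6 independent experiments, and it is not stated whether the regions came from the same animals.

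A voltage-gated calcium or sodium channel has a large pore-forming subunit that senses the membrane potential and lets the ion through. Sodium channels start and carry the action potential. Calcium channels turn depolarisation into transmitter release, dendritic calcium entry and burst firing, according to whether they are of the P/Q, N, R, L or T type. Auxiliary subunits set how many channels reach the membrane and how fast they open and close, and most of the gamma genes expressed in the brain encode partners of AMPA-type glutamate receptors.

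Levels are log2 signal relative to the array's 75th percentile, so 0 marks that percentile and 1 unit is 2-fold. The probes behind the largest differences between regions are printed so that the measured stretch of each gene can be found. Coordinates are those of the array files, build mm9. They are the Scn4b probe at chr9:44962045-44962104, the Scn2b probe at chr9:44937945-44938004, the Cacng5 probe at chr11:107736263-107736322 (minus strand), the Cacna2d3 probe at chr14:29718399-29718458 (minus strand), the Cacng8 probe at chr7:3415260-3415319 and the 2 Cacna1s probes, the brighter at chr1:138016020-138016079 and the dimmer at chr1:138015618-138015677. All are 5′ to 3′ on the strand of the transcript, no base is capitalised in them, and those of Scn4b, Scn2b, Cacng5, Cacna2d3 and the brighter Cacna1s probe show the first 30 of 60 bases.
Scn4b: ttcctatctaactttataggcaatacagtg
Scn2b: gttctttatgctttttaggggagaacccag
Cacng5: aacttttgtcaatgttattaacacctgtga
Cacna2d3: caaggtgacactaactaatgggatgttctt
Cacng8: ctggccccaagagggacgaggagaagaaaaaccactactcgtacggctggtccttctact
Cacna1s brighter probe: cacaaaggcctgatcggtgccagggtctgt
Cacna1s dimmer probe: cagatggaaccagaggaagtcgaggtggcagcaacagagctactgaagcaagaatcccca

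Of the 39 genes, 35 were well above background on all 6 arrays, judged by the brightest probe of each. Scn10a was well above background on the 2 olfactory bulb arrays only, and Scn9a on the hippocampus PAMAM array only. Cacng1, a skeletal muscle gamma subunit, and Scn7a, an atypical sodium channel, were not well above background on any array. Over all arrays, 34134 to 39057 of 59305 spots were well above background and 0 were saturated. The region labels were set against marker genes: all 16 markers of olfactory bulb neurons were highest in the bulb and all 12 hippocampal markers in the hippocampus. Of 11 cortical markers, 6 were highest in the cortex, 3 in the bulb (Ctgf, Foxp2 and Stard8) and 2 in the hippocampus (Fezf2 and Nr4a2).

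**Figure D1:**
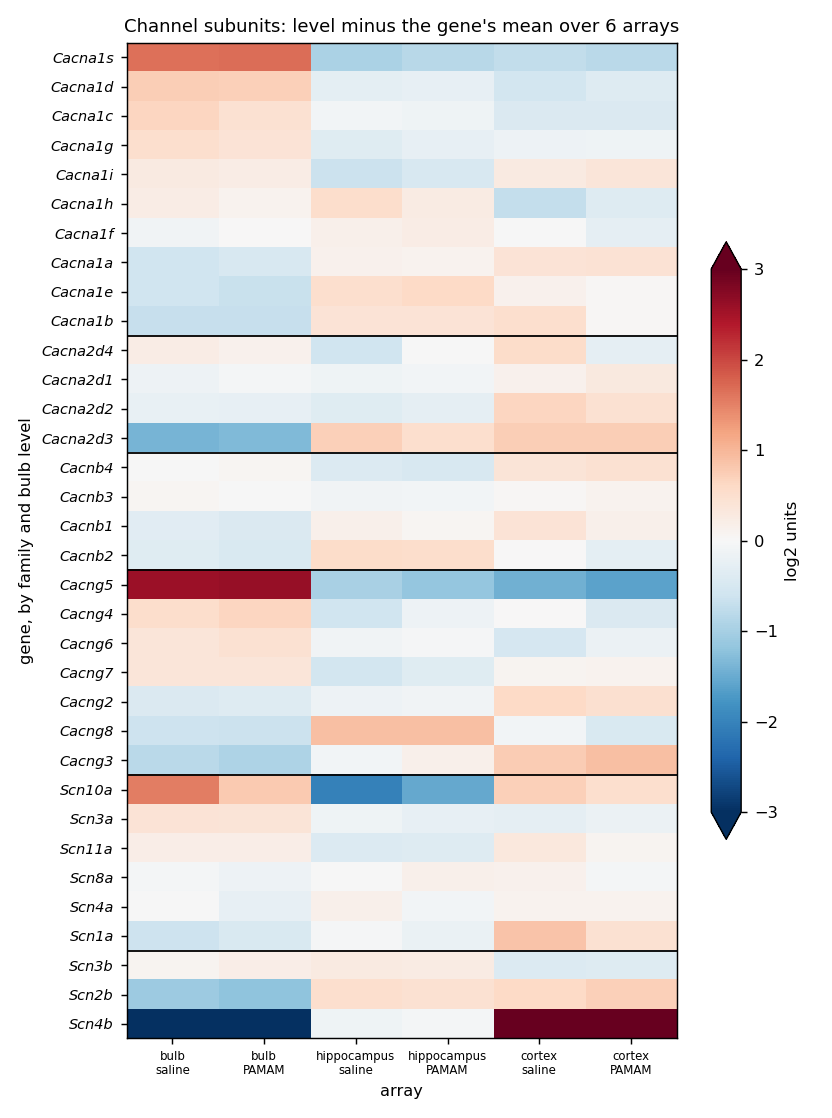
Level of 34 tested channel subunit genes on each of the 6 arrays (columns), as log2 units above (red) or below (blue) the gene's own mean over the arrays, with black lines between families. Scn4b ran from lowest in the bulb to highest in the cortex and Cacng5 was high on the bulb arrays, while the saline and PAMAM columns of a region lay close; Scn10a was not well above background in the hippocampus and cortex.

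Which channel genes differ between regions was asked with limma fitted to all 6 arrays, region plus treatment, over 23730 genes. A gene was called at a Benjamini-Hochberg adjusted p under 0.05 and a 2-fold difference or more. From olfactory bulb to hippocampus, 11 of the 36 channel genes tested were called, 4 higher and 7 lower in the bulb, where 13.2% of all genes tested were called (6.38% higher and 6.77% lower). Between olfactory bulb and cortex 9 of 36 were called, 3 higher and 6 lower, against 13.4% of all genes (6.52% higher and 6.92% lower). Between hippocampus and cortex 3 of 36 were called, 1 higher and 2 lower in the hippocampus, against 4.12% of all genes (2.23% higher and 1.88% lower). Scn10a entered the fit only through the bulb arrays, where it is high, and its other arrays lie near or below background. Without Scn10a the calls were 10 between bulb and hippocampus, 3 of them higher in the bulb, and 2 between hippocampus and cortex. The 2 bulb comparisons share the bulb arrays, so their values are given side by side. In tissue RNA, fewer cells of a type and less RNA per cell cannot be told apart.

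Without the fold limit, 27, 26 and 18 of the 36 channel genes passed an adjusted p of 0.05 in the 3 comparisons, where 46.6%, 49.2% and 15.9% of all genes did. The median difference of the channel genes was -0.15 for bulb minus hippocampus, -0.19 for bulb minus cortex and -0.16 for hippocampus minus cortex. The medians over all genes tested were -0.04, -0.05 and -0.03.

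Among the calcium channel pore genes, Cacna1s, the L-type pore of skeletal muscle, differed most. With saline and PAMAM in that order, as in all pairs of values below, Cacna1s stood at 0.58 and 0.60 on the bulb arrays, -2.03 and -1.90 on the hippocampal arrays and -1.82 and -1.87 on the cortical arrays. Both bulb arrays lay above all 4 others. The level in the bulb was 5.89-fold that in the hippocampus (log2 difference 2.56, SE 0.105, limma adjusted p = 3.79e-06) and 5.42-fold that in the cortex (2.44, SE 0.105, adjusted p = 3.93e-06). Its dimmer probe was well above background on the bulb arrays only, at -3.28 and -3.10. Of 6 markers of skeletal or cardiac muscle, Ckm was not well above background on any array, Myh1 was so on neither bulb array, and 2 (Actn2 and Myl1) were highest in the bulb. The summed level of these markers was 0.45 and 0.41 on the bulb arrays, -0.22 and -0.14 on the hippocampal arrays and 0.40 and 0.27 on the cortical arrays, and their part in the Cacna1s result was not tested.

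Cacna1d, the other L-type pore gene called, encodes a channel that opens at less depolarised potentials than Cacna1c does. Cacna1d measured 0.26 and 0.23 on the bulb arrays, -0.77 and -0.74 on the hippocampal arrays and -1.03 and -0.87 on the cortical arrays. The bulb arrays again lay above the rest. The difference was 1.001 from the hippocampus (SE 0.0952, limma adjusted p = 0.000152) and 1.19 from the cortex (2.28-fold, SE 0.0952, adjusted p = 6.41e-05). The hippocampal difference lies at the fold limit and left the call under normexp background (0.88), with the median of its probes (0.87) and from the authors' deposited table (0.998). Cacna1c, the most widespread L-type pore gene of the brain, had the same order without reaching 2-fold: 0.67 (SE 0.202, adjusted p = 0.0312) and 0.99 (SE 0.202, adjusted p = 0.0057). Its probe is dim, and under normexp background the differences shrank to 0.22 and 0.25.

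The pore genes for the N-type and R-type channels of nerve terminals and dendrites went the other way. Cacna1b (N-type) stood at -4.29 and -4.30 on the bulb arrays, -3.18 and -3.19 on the hippocampal arrays and -3.10 and -3.57 on the cortical arrays. It was lowest on the 2 bulb arrays and 2.15-fold lower there than in the hippocampus (log2 difference -1.10, SE 0.237, limma adjusted p = 0.00737). Cacna1e (R-type) stood at -3.18 and -3.26 on the bulb arrays, -2.09 and -1.99 on the hippocampal arrays and -2.46 and -2.54 on the cortical arrays. Its 3 regions did not overlap, and the bulb was 2.27-fold below the hippocampus (-1.18, SE 0.155, adjusted p = 0.000736). Both probes are dim, and under normexp background the differences shrank to -0.58 and -0.78 and were no longer called. Cacna1a, the P/Q-type pore that carries most fast transmitter release, was lower in the bulb than in the hippocampus (-0.65, adjusted p = 0.000252) and the cortex (-0.96, adjusted p = 3.73e-05), short of 2-fold.

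The 3 T-type pore genes, which support burst firing, each had another regional order. Cacna1g was higher in the bulb than in the hippocampus by 0.76 (adjusted p = 0.000189) and than in the cortex by 0.60 (adjusted p = 0.000566). Cacna1i was lower in the hippocampus than in the bulb and the cortex (bulb minus hippocampus 0.81, adjusted p = 0.0001, and hippocampus minus cortex -0.87, adjusted p = 0.000436). Its other probe differed by only 0.19 and -0.25. Cacna1h stood at 2.66 and 2.53 on the bulb arrays, 2.96 and 2.69 on the hippocampal arrays and 1.71 and 2.06 on the cortical arrays. The 2 cortex arrays were the lowest, with hippocampus minus cortex at 0.94 (SE 0.134, adjusted p = 0.00382) and bulb minus cortex at 0.71 (adjusted p = 0.0039). Its other probes gave 0.46 and -0.01 for bulb minus cortex, so 1 of them did not show that difference. For Cacna1f, the retinal L-type pore gene, limma adjusted p ranged from 0.241 to 0.642 over the comparisons. These values rest on its brightest probe. Its other probe was not well above background on any array, at -7.17 to -5.34.

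Auxiliary calcium channel genes differed by family. Of the 4 alpha2delta genes, which encode extracellular proteins that raise channel number at the membrane, Cacna2d3 was called. Cacna2d3 measured 1.05 and 1.11 on the bulb arrays, 3.16 and 2.95 on the hippocampal arrays and 3.17 and 3.19 on the cortical arrays. The bulb arrays were far below the others, which differed from each other by -0.12 (hippocampus minus cortex, adjusted p = 0.393). The bulb was 3.94-fold lower than the hippocampus (-1.98, SE 0.081, limma adjusted p = 3.78e-06) and 4.28-fold lower than the cortex (-2.10, SE 0.081, adjusted p = 2.6e-06). Cacna2d1 and Cacna2d2, whose proteins bind gabapentin, were lower in the bulb than in the cortex by less than 2-fold (-0.30, adjusted p = 0.00562, and -0.78, adjusted p = 0.000235).

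None of the 4 beta genes, which encode cytoplasmic subunits that bind the pore, was called in any of the 3 comparisons. Cacnb2 was lower in the bulb than in the hippocampus (-0.95, limma adjusted p = 0.000475), and Cacnb4 was higher in the cortex than in the hippocampus (hippocampus minus cortex -0.86, adjusted p = 0.000369). Cacnb1 was below both other regions in the bulb (-0.50, adjusted p = 0.00424, and -0.67, adjusted p = 0.000989). Cacnb3 levels lay between 2.71 and 2.93 over the 6 arrays, with limma adjusted p from 0.136 to 0.538.

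The gamma genes held the largest rise in the bulb. Cacng5, an AMPA receptor partner, stood at 2.47 and 2.52 on the bulb arrays, -1.07 and -1.24 on the hippocampal arrays and -1.52 and -1.71 on the cortical arrays. Bulb arrays exceeded every other array by more than 3 log2 units. The bulb was 12.6-fold above the hippocampus (3.65, SE 0.0951, limma adjusted p = 6.49e-07) and 17.3-fold above the cortex (4.11, SE 0.0951, adjusted p = 4.77e-07).

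Cacng8 and Cacng3, whose proteins traffic AMPA receptors in forebrain neurons, were low in the bulb. Cacng8 stood at -2.27 and -2.29 on the bulb arrays, -0.74 and -0.73 on the hippocampal arrays and -1.72 and -2.10 on the cortical arrays. The hippocampal arrays were the highest, 2.92-fold above the bulb (bulb minus hippocampus -1.54, SE 0.141, limma adjusted p = 0.000124) and 2.26-fold above the cortex (hippocampus minus cortex 1.18, SE 0.141, adjusted p = 0.00187). Under normexp background the second difference was 0.91 and no longer called. Cacng3 stood at -0.43 and -0.56 on the bulb arrays, 0.28 and 0.52 on the hippocampal arrays and 1.12 and 1.27 on the cortical arrays. Its regions did not overlap, and the bulb was 3.23-fold below the cortex (-1.69, SE 0.105, adjusted p = 1.94e-05).

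The remaining gamma genes stayed within 2-fold. Cacng2 (stargazin), the best studied AMPA receptor partner, was lower in the bulb than in the cortex (-0.94, limma adjusted p = 4.9e-05). Cacng4 was higher in the bulb than in the hippocampus (0.96, adjusted p = 0.0117). Cacng7 stood at 4.76 and 4.76 on the bulb arrays, 3.85 and 4.04 on the hippocampal arrays and 4.47 and 4.50 on the cortical arrays. Bulb minus hippocampus was 0.82 (adjusted p = 7.54e-05), and 1.02 under quantile normalisation, which called it. For hippocampus minus cortex its probes disagreed: -0.54 (adjusted p = 0.00212) on the brightest and 0.14 on the other. Neighbouring gamma genes did not share an order: the Cacng7, Cacng8 and Cacng6 probes lie in a row on chromosome 7, 47.5 and 20.3 kb apart in mm9, and bulb minus hippocampus was 0.82, -1.54 and 0.48 for them.

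**Figure D2:**
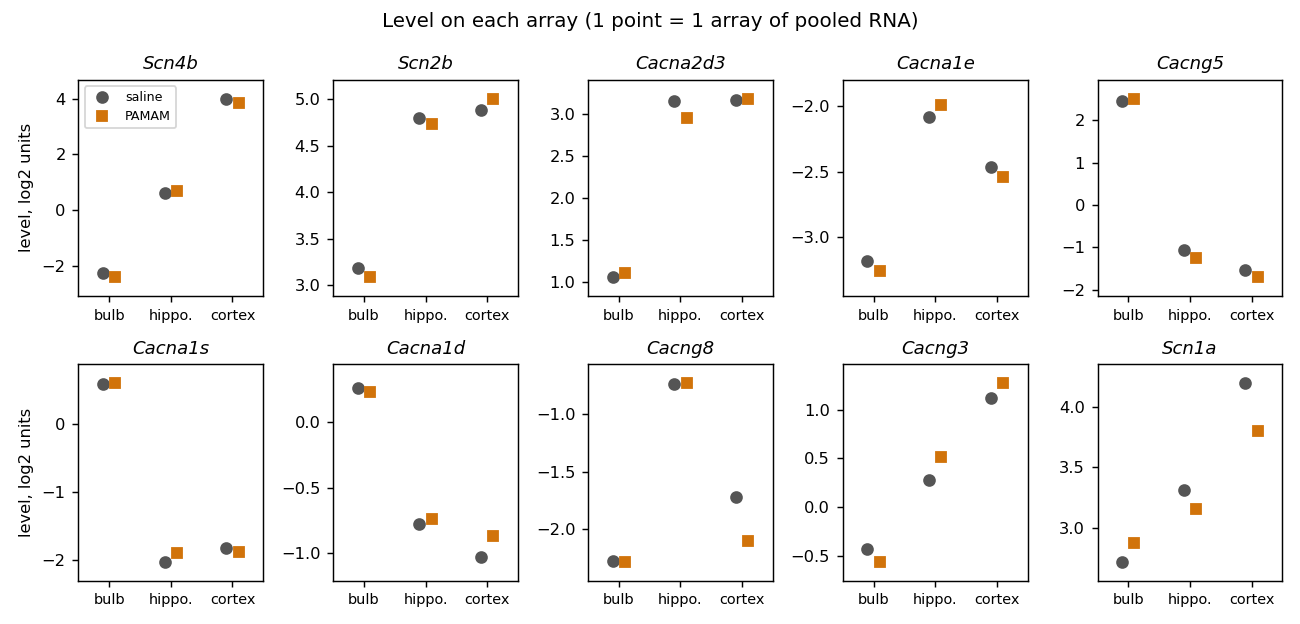
Level (log2 units relative to the array's 75th percentile) of 10 called subunit genes by region, with 1 grey circle for the saline array and 1 orange square for the PAMAM array. In each panel the saline and PAMAM points of a region sat close together compared with the step between the bulb and a called region, except Scn1a in the cortex (4.19 and 3.80).

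Sodium channel beta subunits are single-pass proteins that tune gating and bind cell adhesion partners, and Scn4b and Scn2b were called lower in the bulb in each bulb comparison. Scn4b, whose protein supports resurgent sodium current, stood at -2.26 and -2.42 on the bulb arrays, 0.62 and 0.70 on the hippocampal arrays and 4.01 and 3.85 on the cortical arrays. The 3 regions were separate steps with no overlap. The bulb was 8.0-fold below the hippocampus (-2.999, SE 0.0884, limma adjusted p = 9.88e-07) and 77.3-fold below the cortex (-6.27, SE 0.0884, adjusted p = 2.41e-07), and the hippocampus was 9.66-fold below the cortex (-3.27, SE 0.0884, adjusted p = 1.24e-05). Of the striatal neuron markers, 7 of 7 were also highest in the cortex, by a median of 3.37 above the mean of the other regions. None was undetected in any region. On arrays of the same treatment, Adora2a and Drd2 were higher in the bulb than in the hippocampus, unlike Scn4b, and the other markers lower. The summed level of the striatal markers was 2.79 and 2.92 on the bulb arrays. It was 3.65 and 3.79 on the hippocampal arrays and 6.47 and 6.49 on the cortical arrays. The part of these markers in the Scn4b result was not tested.

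Scn2b, a disulfide-linked beta subunit, measured 3.18 and 3.09 on the bulb arrays, 4.79 and 4.73 on the hippocampal arrays and 4.89 and 5.01 on the cortical arrays. Both bulb arrays were below all others, by 3.09-fold against the hippocampus (-1.63, SE 0.0712, limma adjusted p = 4.81e-06) and 3.51-fold against the cortex (-1.81, SE 0.0712, adjusted p = 2.73e-06). Scn3b, another beta gene, was not called: bulb minus hippocampus was -0.12 (adjusted p = 0.163) and bulb minus cortex 0.53 (adjusted p = 0.000507).

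Scn2b and Scn4b are neighbours, with probes 24.1 kb apart on chromosome 9 in mm9, and both were lower in the bulb. Hippocampus minus cortex was -0.18 for Scn2b (limma adjusted p = 0.138) against -3.27 for Scn4b. Because the pair lies together and differs in this way, the 250 bases before each start site are shown, from RefSeq on GRCm38.p6 (chr9:45117626-45117875 for Scn2b and chr9:45138374-45138623 for Scn4b, both on the plus strand). Capitals mark E boxes (CANNTG) in Scn2b and a CCAAT box, read on the other strand, in Scn4b.
Scn2b promoter: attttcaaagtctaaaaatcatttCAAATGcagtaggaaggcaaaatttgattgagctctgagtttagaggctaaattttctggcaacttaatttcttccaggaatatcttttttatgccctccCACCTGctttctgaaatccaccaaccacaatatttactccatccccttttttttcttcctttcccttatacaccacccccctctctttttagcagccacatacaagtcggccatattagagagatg
Scn4b promoter: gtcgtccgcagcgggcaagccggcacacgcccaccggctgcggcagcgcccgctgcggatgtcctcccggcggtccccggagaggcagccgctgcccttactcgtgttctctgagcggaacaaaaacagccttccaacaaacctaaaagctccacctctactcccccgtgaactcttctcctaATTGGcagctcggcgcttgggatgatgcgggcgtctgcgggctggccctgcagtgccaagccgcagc
The windows were searched on both strands for the GC box (GGGCGG), the CCAAT box, the TATA box (TATAAA), the E box (CANNTG) and the cAMP response element (TGACGTCA), and no match overlapped another in these 2 windows. Scn2b held 2 E boxes and none of the other motifs, and Scn4b held 1 CCAAT box and none of the others. Of 32851 promoter windows of this length, 66.2% held an E box and 33.8% a CCAAT box, so both matches are common. A promoter entry was found for 29 of the 39 genes.

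Of the sodium channel alpha genes, Scn1a was called between bulb and cortex. Scn1a, the pore of fast-spiking inhibitory neurons and the gene of Dravet syndrome, stood at 2.72 and 2.87 on the bulb arrays, 3.31 and 3.15 on the hippocampal arrays and 4.19 and 3.80 on the cortical arrays. Its regions did not overlap. The bulb was 2.301-fold below the cortex (-1.202, SE 0.118, limma adjusted p = 0.000172), with a difference of -1.48 between the saline arrays and -0.93 between the PAMAM arrays. Under quantile normalisation the difference was -0.96, short of the limit. The gene with the alias Scn2a is named Scn2a1 in the array files and so fell outside the symbol rule. This main sodium channel of excitatory axons stood at 2.94 and 2.92 on the bulb arrays, 4.06 and 3.96 on the hippocampal arrays and 4.13 and 4.19 on the cortical arrays. Scn2a1 was lower in the bulb than in both other regions (-1.08, adjusted p = 1.92e-05, and -1.23, adjusted p = 9.6e-06), and its 2 bulb arrays lay below the rest.

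Scn3a, best known from the developing brain, was higher in the bulb: 2.38 and 2.36 on the bulb arrays, 1.84 and 1.72 on the hippocampal arrays and 1.69 and 1.79 on the cortical arrays. The bulb arrays lay above the others by 0.59 (limma adjusted p = 0.000632) and 0.63 (adjusted p = 0.000439) on average. Its other probes gave 0.47 to 1.28 against the hippocampus and 0.68 to 1.18 against the cortex, 1 of them well above background on 3 arrays only, and the median of the probes put both differences past 2-fold (1.28 and 1.16). Scn1a, on the same stretch of chromosome 2, 813 kb from Scn3a, thus had the opposite order.

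Scn8a, the pore gene of the axon initial segment and nodes, depended on the probe. On its brightest probe Scn8a stood at 1.37 and 1.28 on the bulb arrays, 1.42 and 1.59 on the hippocampal arrays and 1.56 and 1.37 on the cortical arrays. Those values overlapped, with bulb minus hippocampus at -0.18 (limma adjusted p = 0.182) and bulb minus cortex at -0.14 (adjusted p = 0.277). The other probes gave -1.25 and -1.38 against the hippocampus and -1.15 and -1.49 against the cortex, and the median of the 3 probes was called in both (-1.38, adjusted p = 0.000225, and -1.49, adjusted p = 0.000149). Since the stretch measured decides the value, all 3 probes are shown, the brightest (first 30 bases) at chr15:100875702-100875761, the next at chr15:100848863-100848922 and the last at chr15:100766904-100766963, all on the plus strand.
Scn8a brightest probe: gcaggtgtgcacatgtatgtgtgtgtgtgt
Scn8a middle probe: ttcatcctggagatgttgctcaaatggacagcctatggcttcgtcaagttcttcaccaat
Scn8a upstream probe: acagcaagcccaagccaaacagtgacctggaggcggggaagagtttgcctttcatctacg
The brightest probe thus lies farthest downstream. Its shown bases include a run of alternating t and g.

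**Figure D3:**
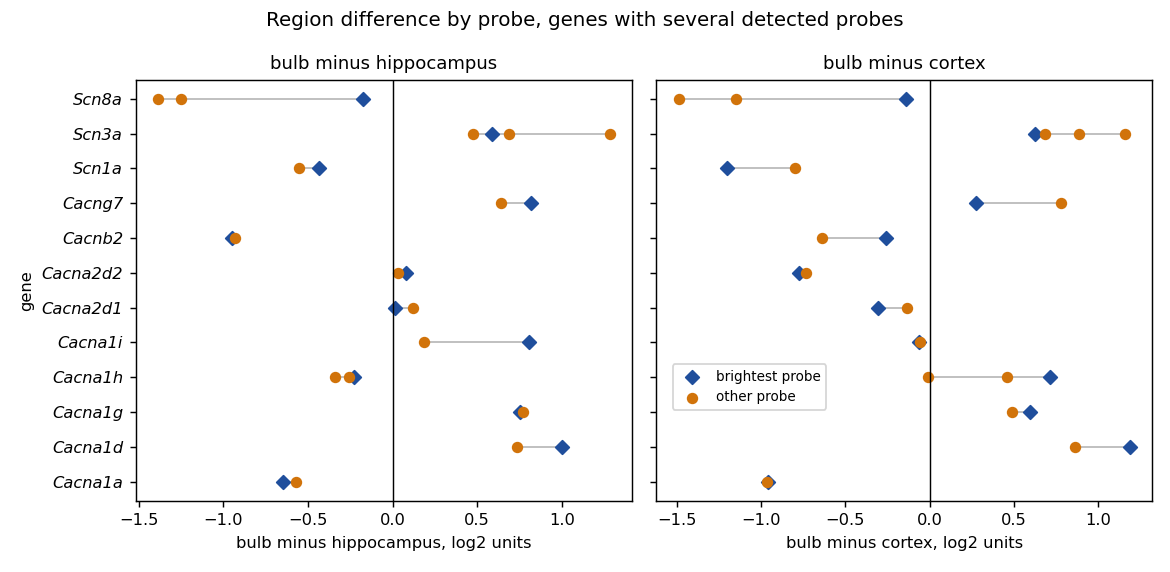
Region difference by probe (log2 units, bulb minus hippocampus on the left and bulb minus cortex on the right) for the 12 genes with more than 1 probe well above background on all 6 arrays, with blue diamonds for the brightest probe and orange circles for the others. The Scn8a probes spread from -0.14 to -1.49 for bulb minus cortex, while the Cacna1a probes fell at -0.96 and -0.97.

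Sodium channel genes known from muscle and sensory neurons were mostly dim. Scn10a, a pore of pain-sensing neurons, read -3.38 and -4.11 in the bulb. It was not well above background on the 4 other arrays. Against the hippocampus a limit is given: the bulb was at least 2.09-fold above it (1.06 in log2 units). Against the cortex there is no such limit. The cortex readings, -4.19 and -4.39, lay above those arrays' lowest signals well above background (-4.455 and -4.54). The 1.46-fold between bulb and cortex is thus the plain difference of the means. Because it passed the filter only where it was high, no p is given for these. Its call between hippocampus and cortex rests on 4 arrays on which it was not well above background, so no fold is given. Under normexp background its bulb minus hippocampus difference was 0.50, below that limit, and its bulb minus cortex difference was -0.03. Of 6 markers of peripheral sensory neurons and Schwann cells 1 (Pmp22) was highest in the bulb, where Trpv1 and Isl1 were not well above background, with summed levels of 1.404 and 1.42 on the bulb arrays, 1.28 and 1.16 on the hippocampal arrays and 1.46 and 1.46 on the cortical arrays, and their part in the Scn10a result was not tested.

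Scn11a, another sensory neuron pore, was lower in the hippocampus than in the bulb (bulb minus hippocampus 0.59, limma adjusted p = 0.00508). Scn4a, the skeletal muscle pore, ranged from -2.74 to -2.33 over the arrays, with adjusted p from 0.229 to 0.8.

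Genes whose products bind, anchor or regulate these channels were also counted, from a list of 41 of which 39 were on the array and 36 were tested. Between bulb and hippocampus 1 was called higher and 6 lower, where 13.2% of all genes tested were called. Between bulb and cortex 2 were higher and 9 lower (13.4% of all genes), and between hippocampus and cortex 2 higher and 2 lower (4.12%). Camk2a, the kinase that phosphorylates these channels, stood at 1.88 and 1.73 on the bulb arrays, 3.93 and 4.24 on the hippocampal arrays and 3.95 and 4.02 on the cortical arrays. Its bulb arrays were the lowest (-2.28, limma adjusted p = 5.9e-06, and -2.18, adjusted p = 6.29e-06). Stx1a, the syntaxin that binds presynaptic calcium channels, stood at 0.91 and 0.87 on the bulb arrays, 2.05 and 2.301 on the hippocampal arrays and 3.48 and 3.36 on the cortical arrays, with no overlap between regions (-1.28, adjusted p = 4.85e-05, and -2.53, adjusted p = 2.47e-06).

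Other partners called lower in both bulb comparisons were Fgf13, which binds the sodium channel tail (-2.03 and -1.29), Rem2, an inhibitor of calcium channels (-1.80 and -1.46), Rims1, which tethers calcium channels at release sites (-1.39 and -1.77), and Nedd4l, a ubiquitin ligase for sodium channels (-1.18 and -1.16). Cabp1 (-2.18), Fgf14 (-1.15) and Unc13a (-1.07) were called lower in the bulb than in the cortex. Gem, a relative of Rem2 that also inhibits calcium channels, was higher in the bulb (1.36, limma adjusted p = 0.000245, and 1.54, adjusted p = 0.00013). Stac, an adaptor of L-type channels, was higher in the bulb (1.90) and the hippocampus (2.11) than in the cortex. Cachd1, a relative of the alpha2delta genes, was higher in the hippocampus than in the cortex (1.26). Cabp1 (-1.27) and Stx1a (-1.25) were lower in the hippocampus than in the cortex.

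Oligodendrocyte markers also differed between regions: 0 of 9 were highest in the bulb and 9 of 9 in the cortex, with summed levels of 7.16 and 7.14 on the bulb arrays, 7.84 and 8.01 on the hippocampal arrays and 8.18 and 8.09 on the cortical arrays. The part of the mix of cells in the region differences above was not tested.

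Whether PAMAM moved the channel genes was asked first as a mean over the 3 regions. In limma with treatment and region, 0 of 36 channel genes passed an adjusted p of 0.05, where 0% of all 23730 genes did. At an unadjusted p under 0.05 there were 0 channel genes and 1580 of all genes (6.66%). Cacnb1 (-0.16) and Cacna2d1 (0.10) came nearest, with limma adjusted p of 0.764 and 0.77. Cacnb1 was lower on the PAMAM array in 3 of 3 regions, with differences of -0.11, -0.11 and -0.26.

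Within a region the comparison is between 1 saline and 1 PAMAM array and has no replicate check. No channel gene reached 2-fold: 0 of 36 in the bulb (0.259% of all measured genes did), 0 of 35 in the hippocampus (0.653%) and 0 of 35 in the cortex (0.768%). The channel genes spanned -0.73 to 0.16 in the bulb, -0.27 to 0.59 in the hippocampus and -0.82 to 0.34 in the cortex. Their medians were -0.02, 0.02 and -0.06, beside -0.01, 0.00 and 0.02 over all genes. Higher on the PAMAM array were 14 of 36, 19 of 35 and 17 of 35, where 47.2%, 51.2% and 53.5% of all genes were. With a limit of 0.5, 1 channel gene was counted in each region: Scn10a in the bulb (3.17% of all genes), Cacna2d4 in the hippocampus (4.6%) and Cacna2d4 in the cortex (6.89%). Counted over all 3 regions, 0 of 35 differed in 1 direction by at least 0.2, where 1.69% of 20976 genes did.

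Cacna2d4, an alpha2delta gene best known from the retina, had levels of -3.36 and -3.45 on the bulb arrays, -4.18 and -3.59 on the hippocampal arrays and -3.04 and -3.85 on the cortical arrays. PAMAM was thus above saline in the hippocampus (0.59) and below it in the cortex (-0.82), while the bulb arrays differed by -0.09. Under normexp background the differences were 0.35 and -0.14. Scn10a differed by -0.73 between the bulb arrays, lower with PAMAM, and by -0.28 under normexp background. From spots repeated within an array, the median SD of a difference between 2 spots was 0.175 to 0.199 for dim probes and 0.0737 to 0.0795 for bright ones. Dim means below the array's median of probes well above background, -1.17 to -0.61 by array. Cacna2d4 and Scn10a lie far below that cut, and the SD at their level was not computed. The SD covers spot noise within an array only, not the spread between samples.

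**Figure D4:**
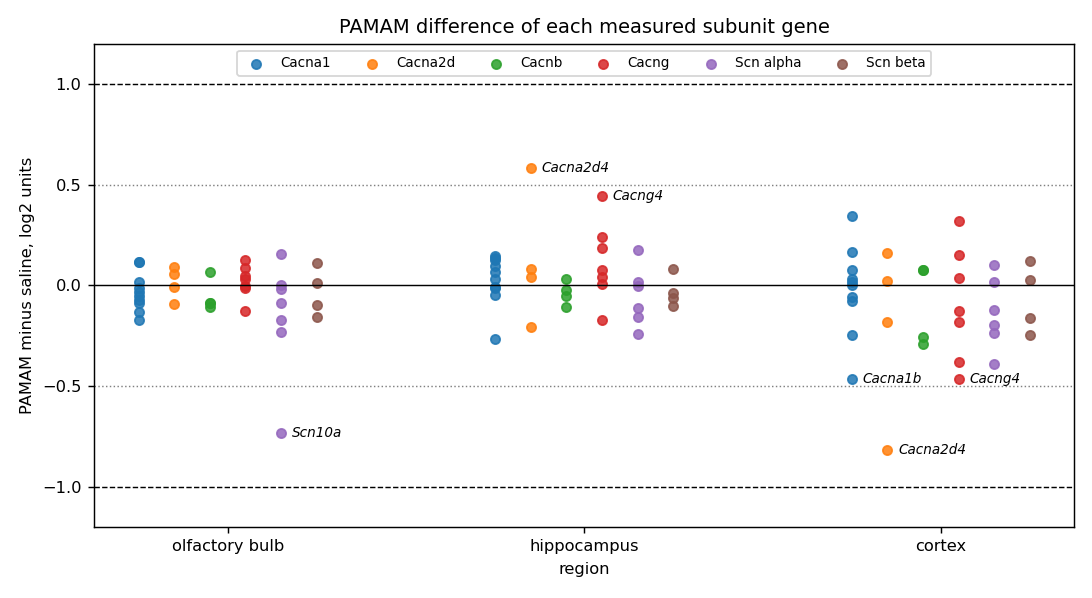
PAMAM minus saline difference (log2 units) of each channel subunit gene measured in a region, 1 point per gene, coloured by family. Dashed lines mark 2-fold and dotted lines 0.5; all points lie within 2-fold, and Scn10a in the bulb and Cacna2d4 in the hippocampus and cortex lie past 0.5.

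For the genes with large region differences, PAMAM differences were small beside those between regions. Scn4b differed by -0.16, 0.08 and -0.16 in bulb, hippocampus and cortex, Cacng5 by 0.05, -0.17 and -0.18, and Cacna2d3 by 0.05, -0.21 and 0.02. Scn2b differed by -0.10, -0.06 and 0.12. Scn1a differed by 0.16, -0.16 and -0.39, and its other probe by 0.00, -0.26 and -0.59. Among the dim genes of the cortex, Cacna1b (-0.47), Cacng4 (-0.47) and Cacng8 (-0.38) were lower on the PAMAM array. Under normexp background these differences shrank to -0.09, -0.24 and -0.22.

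In the cortex, markers of other tissues differed between the same 2 arrays. All 9 choroid plexus markers were higher on the PAMAM array (median 1.39, summed level 2.32 against 4.59), as were 8 of 8 meningeal markers (median 0.87, summed level 3.03 against 3.99) and 5 of 5 red blood cell markers (median 0.49, summed level 5.53 against 6.17). Hippocampal neuron markers were higher for 9 of 11 detected (median 0.61, summed level 5.10 against 5.58). Thalamic markers were higher for 1 of 8 (median -0.39, summed level 2.89 against 2.63). In the hippocampus, 9 of 9 choroid plexus markers were also higher (median 0.82, summed level 7.42 against 8.11), as were 5 of 5 red blood cell markers (median 0.55, summed level 5.51 against 6.04) and 6 of 7 detected thalamic markers (median 0.54, summed level 2.26 against 2.88). In the cortex 1 hippocampal neuron marker, and in the hippocampus 1 thalamic marker, was not well above background on either array. Their part in the channel gene differences was not tested.

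Among the channel partners, 0 of 36 differed by 0.5 with PAMAM in the bulb, where 3.17% of all genes did. In the hippocampus 1 of 36 did (Fgf11, a sodium channel binding factor, 0.67), against 4.6% of all genes. In the cortex 2 of 35 did (Stac, 0.60, and Rimbp2, which links calcium channels to release sites, -0.59), against 6.89% of all genes. All 3 were dim there: Fgf11 stood at -3.74 and -3.07, Stac at -2.74 and -2.14, and Rimbp2 at -1.75 and -2.34.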

How the data were processed

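Total RNA of each group was labelled with Cy3 by Agilent's one-colour protocol, per the labels' protocols. The authors deposited scanner files with spot intensity on a linear scale (raw mean, local background, and a processed signal already corrected for background), written by Feature Extraction 10.7.3.1, per the file headers. They also deposited a table of log2 values, made by steps not given in the sources used here. The column medians are -0.0906, -0.0617, -0.0459, 0.0252, 0.0432 and 0.0347 (bulb, hippocampus and cortex, each saline then PAMAM). Set against the scanner values, it equals 75th-percentile-scaled log2 signal minus each probe's median (r 0.9999 to 1 over 29549 probes, largest residual 0.0233), which settles scale, centring and direction. How it treated repeated spots and any filter stay unknown.

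Here log2 of the processed signal was scaled to each array's 75th percentile (452 to 709.6 in signal). Outlier spots were left out, so that 15 of 55681 probes dropped away, and repeated spots averaged. Gene names and coordinates are those of the files. Groups came from the labels, and all 6 arrays share 1 slide. Genes well above background on both arrays of at least 1 region entered the fit or, within a region, counted as measured. Region differences and the mean PAMAM difference were fitted with limma 3.58.1 (R 4.3.3, lmFit and eBayes with an intensity trend, 2 residual degrees of freedom, 5.13 prior) and adjusted by Benjamini-Hochberg. The fit was tested on simulated data. With 1 array per group, its p-values measure only the spread between these arrays, which includes any difference in PAMAM response between regions. Where 1 side only was above background, a limit is given, the brighter mean against either the dim probe's own value or the array's lowest signal well above background, whichever is higher. Where the probe's own value is the higher, the result is a plain difference and not a limit.

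The members, gene lists and tests were chosen with earlier results of these data known. Genes were named where called in a region comparison, where PAMAM and saline differed by 0.5 or more, or where probes disagreed; others stand by range or by role. Some members count in the totals but are not reported by name here. Some were added for their role after their values were seen. Alternatives were normexp background (offset 50), quantile normalisation, the median over a gene's probes, the authors' deposited table, brighter genes only, no detection filter, no intensity trend, and leaving out 1 treatment or region.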

Additional observations from a re-analysis of the deposited data

Results flagged for a closer look

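Some channel genes differed in opposite directions between PAMAM and saline in the hippocampus and the cortex. Those given here were picked for it, and the share of all genes that do so was not counted. Cacna2d4 was higher by 0.586 in the hippocampus and differed by -0.8174 in the cortex. Cacng4, an AMPA receptor partner, differed by 0.4458 and -0.4658 in the same regions, and Cacna1h, a T-type pore gene, by -0.2672 and 0.343. Under normexp background Cacna2d4 differed by 0.35 and -0.14, Cacng4 by 0.35 and -0.24, and Cacna1h by -0.30 and 0.32. Each region has 1 array per treatment, so the difference between regions was not tested. The other Cacna1h probes differed by -0.28 and -0.68 in the cortex, against the direction of the brightest probe.

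Scn9a, a sodium channel pore of pain-sensing neurons, entered no comparison. Its only probe was well above background on the hippocampus PAMAM array alone, at -3.01, which puts that array at least 4.119-fold above the hippocampus saline array. The other arrays read between -7.57 and -6.62, below background, and the value rests on 1 spot.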

How the results depend on the processing

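The number of channel genes called between regions was within 1.5-fold of the reported one for 48 such counts, those of PAMAM included, and was not for 10. Many of the 48 were PAMAM counts that stayed at 0, so they say nothing about the region calls. Between bulb and hippocampus the 11 calls became 7 under normexp background and 3 of 20 tested among brighter genes. Between bulb and cortex the 9 calls became 5 among brighter genes, and between hippocampus and cortex the 3 calls became 1 under normexp background and 0 among brighter genes. Fewer genes are tested among brighter ones; for normexp the cause was not tested. Over all genes the 3121, 3188 and 977 calls became 1897, 1867 and 470 under normexp background and 952, 1022 and 222 of 12008 among brighter genes. The saline arrays alone gave 12, 13 and 4 channel genes past 2-fold and the PAMAM arrays alone 11, 9 and 3. For PAMAM within regions, the 0 genes past 2-fold became 1 in the hippocampus (Scn9a) and 1 in the cortex (Scn7a) with no detection filter, and 1 in each region with a limit of 0.5. The mean PAMAM difference gave 0 channel genes in every alternative. No called value changed direction. Of the values of single genes, 181 were the same, 9 weaker, 6 past the limit that had not been and 3 moved. Cacna1b between bulb and cortex reached -1.11 under quantile normalisation. The mean PAMAM difference is already fitted within regions, 3 pairs of arrays, and pairing by animal was not possible because the labels give no replicate numbers. Precision is limited by the number of arrays and, for dim probes, by signal near background.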

Other observations

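In the cortex the channel genes split by brightness. The 21 brighter genes had a median PAMAM difference of 0.03, and the 14 dimmer ones a median of -0.21, with 10 of the 14 lower on the PAMAM array. Over all genes the medians were 0.04 for brighter and -0.06 for dimmer genes. The share of all dimmer genes lower on the PAMAM array was not computed. The count of 10 of 14 is therefore not a result about the channel genes.

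Probes that were not the brightest of their gene gave another picture of the cortex. Of 16 such probes of 12 channel genes, well above background on all arrays, 12 were lower on the cortex PAMAM array, with a median of -0.35, where the brightest probes beside them had a median of 0.04. The share over all such probes of the array was not computed. The count is therefore not a result about the channel genes. In the bulb the medians were -0.02 and -0.03, and in the hippocampus -0.01 and 0.04. The sign of the PAMAM difference was shared with the brightest probe for 9 of 16 in the bulb, 10 of 16 in the hippocampus and 9 of 16 in the cortex. For region differences where the brightest probe passed an adjusted p of 0.05, it was shared for 10 of 10 probes for bulb minus hippocampus, 11 of 12 for bulb minus cortex and 8 of 9 for hippocampus minus cortex. These are values of 2 arrays each, and no cause was tested.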
